A study of Mus musculus with 6 samples.

Results

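The genes of the interferon response and of antigen presentation by major histocompatibility complex (MHC) class I were followed while C2C12 cells turned from myoblasts into myotubes. C2C12 is a mouse myoblast line derived from leg muscle of a C3H mouse, and it fuses into multinucleated myotubes when the serum in its medium is lowered. Both groups were of the same wild type line with no other treatment, namely myoblasts at day 0 (D0, 3 cultured samples) and myotubes at day 5 (D5, 3 cultured samples). In the methods of the study, growth medium held fetal bovine serum and differentiation medium held a lower share of horse serum, so the change of medium and differentiation itself cannot be told apart here. Total RNA was sequenced and reads were counted per gene, which gave 36555048 to 40895840 counts in genes per library at D0 and 25449759 to 25811300 at D5. The members are 38 genes given by symbol, and all 38 had a row among the 54525 genes of the count files. Whether the 3 samples of a day came from cultures kept apart is not recorded further, and the p-values measure only the spread between these samples, which may be technical.

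Interferons are secreted proteins that cells release when sensors such as RIG-I (*Ddx58*) and MDA5 (*Ifih1*) detect foreign RNA. They bind receptors on the cell surface, and Janus kinases then activate transcription factors such as STAT2, which joins IRF9 and helps to switch on a large set of interferon-stimulated genes through a short DNA element, the interferon-stimulated response element (ISRE). The products of these genes block viruses at entry, translation or budding, and they also raise the machinery that cuts proteins into peptides, loads them on class I molecules and shows them to T cells. Healthy muscle fibres are known for low class I levels, and a rise of class I and of interferon-stimulated genes in fibres is a recognised feature of inflammatory myopathies.

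Because these genes are usually described by the ISRE they share, their promoters were read first. RefSeq promoter windows (250 bases before and 50 after the start, build GRCm38.p6) were found for 31 of the 38 members. The ISRE core, written as GAAA, any 2 bases and GAAA and searched on both strands, lay in the 250 bases before the start of 11 of these 31 members (35.5%), compared with 936 of 27025 genes with a window (3.46%). The 11 were *Stat2*, *Ifit1*, *Ifit3*, *Oas1a*, *Isg15*, *Rsad2*, *Bst2*, *Gbp2*, *Ifitm2*, *Cxcl10* and *B2m*. The gamma-activated site, TTCNNNGAA (a palindrome, so the same on both strands), was found in 5 of the 31 (16.1%), *Irf1*, *Ifit2*, *Oas1a*, *Bst2* and *Psmb8*, and in 8.13% of all genes. The stretches below are from 6 members that were called higher at D5 by TMM scaling and from 2 (*Cxcl10* and *Rsad2*) with too few counts to be tested. Capitals mark every base of an ISRE core match. They are the reference strain's sequence, read 5′ to 3′ on the strand of the gene.
*Ifit1* (chr19:34640770-34640828, plus strand): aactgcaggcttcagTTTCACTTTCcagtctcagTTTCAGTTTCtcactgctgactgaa
*Ifit3* (chr19:34583358-34583431, plus strand): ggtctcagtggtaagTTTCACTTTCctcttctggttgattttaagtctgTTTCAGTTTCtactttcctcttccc
*Isg15* (chr4:156200860-156200911, minus strand): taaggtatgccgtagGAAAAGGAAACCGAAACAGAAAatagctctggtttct
*Bst2* (chr8:71537572-71537617, minus strand): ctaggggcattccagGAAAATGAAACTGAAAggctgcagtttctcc
*Gbp2* (chr3:142620589-142620628, plus strand): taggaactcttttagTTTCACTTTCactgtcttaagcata
*B2m* (chr2:122147533-122147572, plus strand): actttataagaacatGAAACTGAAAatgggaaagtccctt
*Cxcl10* (chr5:92349078-92349117, minus strand): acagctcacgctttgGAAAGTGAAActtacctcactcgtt
*Rsad2* (chr12:26456548-26456587, minus strand): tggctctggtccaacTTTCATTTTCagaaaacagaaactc
*Ifit1* and *Ifit3* held 2 separate cores each, and *Isg15* and *Bst2* held 3 and 2 cores that run into each other. A match is a stretch of letters and not a measured binding site.

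Most of the 38 genes rose as myoblasts became myotubes. At D5, 26 members were higher, 1 (*Ifih1*) was lower, 2 (*Irf1* and *Irf9*) did not pass the test and 9 had too few counts to be tested. A gene was called when its Benjamini-Hochberg adjusted p in edgeR's quasi-likelihood test was under 0.05, and "edgeR adjusted p" stands for that value throughout, taken over all 16290 genes tested. Most genes tested differed between the days, so the background is high: 42.2% of the genes tested were called higher and 40.8% lower. The median log2 fold change of the 29 members tested was 1.28, while that of all genes tested was 0.0022. *Irf7*, *Ifit3* and *Ifitm1* reached the filter on low counts in fewer than 3 libraries of D0, so they entered the test through D5. Values are given as CPM (counts per 1e+06 counts in genes) after edgeR's TMM scaling, which sets the bulk of genes equal between libraries, so each change is relative to other genes, and values of single libraries are listed for replicates 1, 2 and 3 in that order. In bulk RNA, a change in the number of cells of a type and a change of RNA per cell cannot be told apart.

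**Figure D1:**
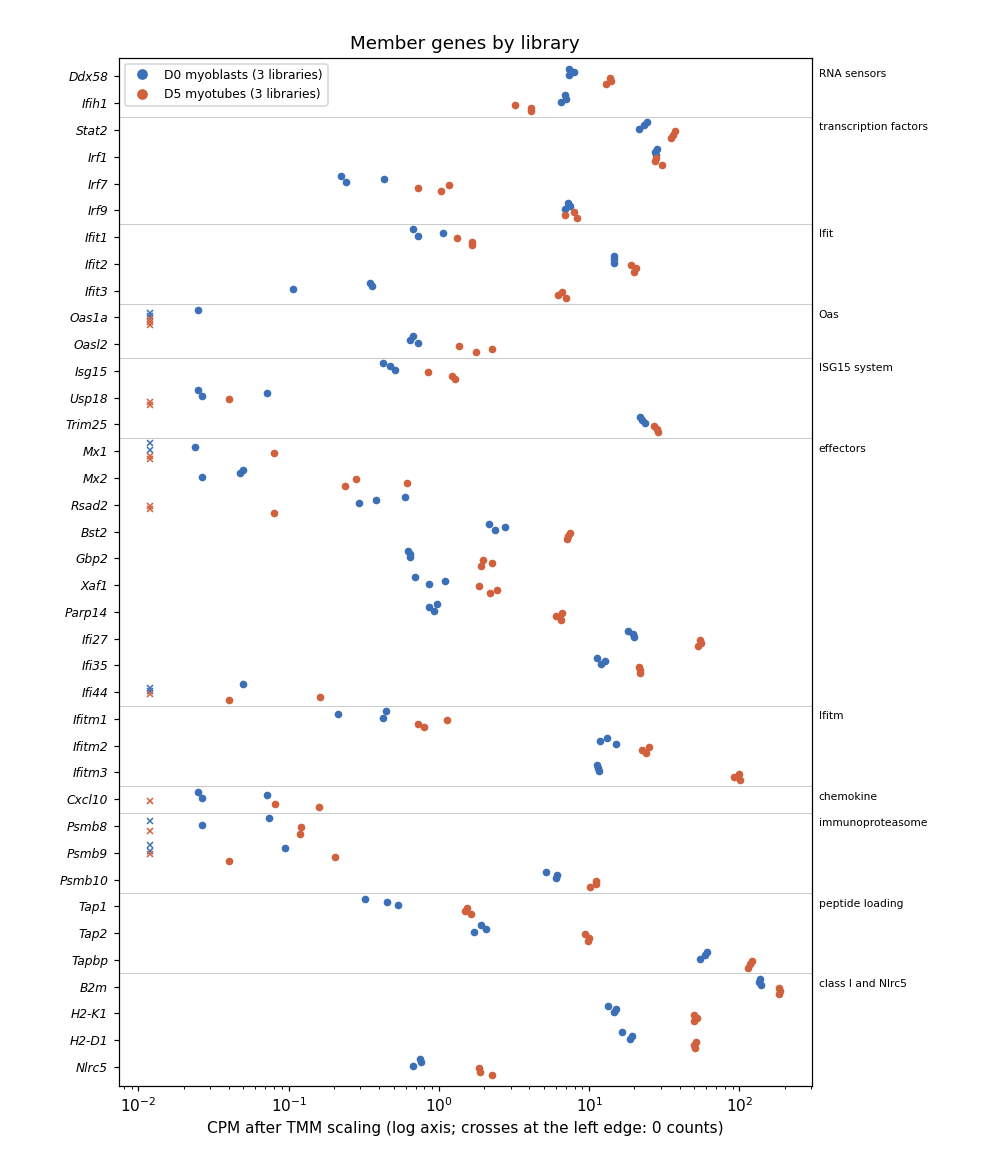
Level of each of the 38 members in every library, as CPM after TMM scaling on a log axis (blue, 3 D0 libraries; orange, 3 D5 libraries; crosses at the left edge, 0 counts). In 27 members every D5 library lies above every D0 library, in *Ifih1* and *Rsad2* every D5 library lies below, and the members without counts enough for a test sit at the left.

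The choice of scaling mattered for how many members were called. Each library held 92 ERCC spike-ins (synthetic RNAs added to a sample), whose share of all counts ranged from 0.720% to 2.09% and differed most among the D5 libraries. With libraries scaled to these spike-ins, the median log2 fold change of all genes moved to -0.58, 5 members were called higher (*Ifit3*, *Ifitm3*, *Parp14*, *Tap2* and *H2-K1*) and *Ifih1* was called lower, beside 11.1% of all genes called higher. Of all calls, 32.6% were then higher, compared with 50.8% with TMM. The median of the members stood 1.28 above that of all genes under both scalings. Scaling moves all genes by about the same amount, so this gap cannot test the rise against the choice of scaling. Where a named gene was above zero by TMM and below zero with spike-in scaling, both values are given.

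**Figure D2:**
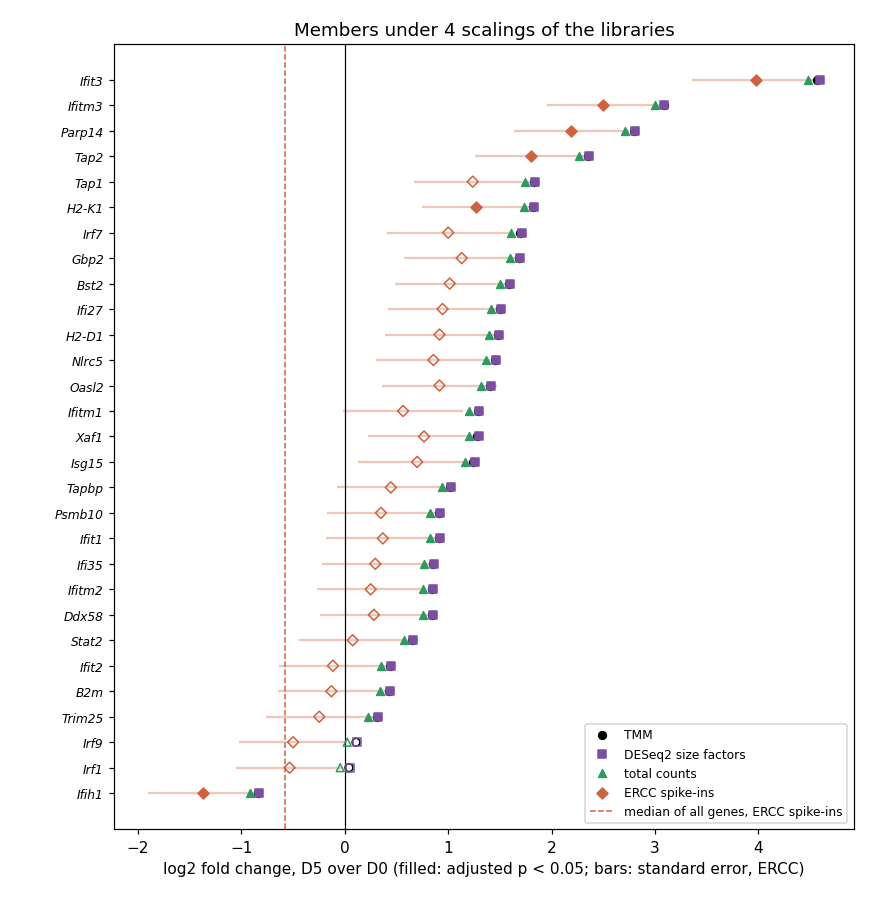
Log2 fold change (D5 over D0) of the 29 members tested with libraries scaled by TMM, by DESeq2's size factors, by total counts and by the ERCC spike-ins; filled symbols have an adjusted p under 0.05, bars are standard errors of the spike-in fit and the dashed line is the median of all genes in that fit (-0.58). The first 3 scalings lie close together, the spike-ins move every member to the left with wide errors, and 5 filled diamonds lie above zero and 1 below.

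The 2 RNA sensors moved in opposite directions. *Ddx58* (RIG-I, which detects short double-stranded RNA with a free end) was at 7.39, 7.97 and 7.301 CPM at D0 and 12.98, 13.96 and 13.7 CPM at D5. Every D5 library was above every D0 library, and its log2 fold change was 0.84 (standard error 0.08, edgeR adjusted p = 1.6e-11). *Ifih1* (MDA5, which detects long double-stranded RNA) was the only member called lower, at 6.49, 6.97 and 6.88 CPM at D0 and 4.101, 4.098 and 3.22 CPM at D5. Its D5 libraries all lay under its lowest D0 library, with a log2 fold change of -0.83 (standard error 0.11, edgeR adjusted p = 5.0e-08) and of -1.37 (standard error 0.54, adjusted p = 0.035) with spike-in scaling.

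Among the other genes of sensing and signal transfer, 5 were higher and 7 lower of the 17 tested (18 listed). The shares over all genes tested were 42.2% higher and 40.8% lower. *Tmem173* (STING, the adaptor of cytosolic DNA sensing) rose from 1.33 ± 0.251 to 8.75 ± 0.749 CPM (mean ± SD of 3 libraries, as below), and its log2 fold change was 2.71 (standard error 0.13, edgeR adjusted p = 6.9e-18). *Mb21d1* (cGAS, the enzyme that makes the messenger which activates STING) fell from 12.7 ± 0.905 to 3.16 ± 0.457 CPM, with log2 fold change -2.0 (standard error 0.10, edgeR adjusted p = 2.3e-17). The sensor of DNA and its adaptor therefore moved in opposite directions as well. *Irf5* (a transcription factor downstream of Toll-like receptors) fell with a log2 fold change of -2.16 (adjusted p = 6.6e-10), and *Ticam1* (TRIF, the adaptor of TLR3) fell with log2 fold change -0.75 (adjusted p = 1.8e-12). *Mavs* (the adaptor of RIG-I and MDA5) rose with log2 fold change 0.63 (adjusted p = 7.8e-10), and *Myd88* (adaptor of most other Toll-like receptors) with log2 fold change 0.43 (adjusted p = 9.1e-06) by TMM but log2 fold change -0.14 with spike-in scaling.

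Interferon transcripts were at or near zero on both days. Of 21 interferon genes, 18 had 0 counts in all 6 libraries, including *Ifnb1*, and none had the counts for a test. A count of 0 allows up to 3 counts, or 0.0714 to 0.122 CPM depending on the library. The exceptions, named after their values were seen, were *Ifng* at 1, 3 and 0 counts at D0 and 6, 3 and 2 at D5, *Ifne* at 2, 2 and 4 and 0, 0 and 1, and *Ifnab* with 1 count in 1 D5 library. These low counts refer to RNA in the cells at 2 times only.

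The receptors and kinases through which interferons act were expressed on both days. Of the 15 genes tested in this list (16 listed) 7 were higher and 4 lower, beside 42.2% and 40.8% of all genes tested. *Ifnar1*, a chain of the type I interferon receptor, fell from 82.7 ± 1.54 to 56.8 ± 1.91 CPM with a log2 fold change of -0.54 (standard error 0.04, edgeR adjusted p = 8.7e-14). The partner chain *Ifnar2* did not pass the test, at -0.12 (adjusted p = 0.075) on the log2 scale. Of the receptor for interferon gamma, *Ifngr2* rose with log2 fold change 1.35 (adjusted p = 9.4e-22), while *Ifngr1* was at log2 fold change 0.11 (adjusted p = 0.053) by TMM and -0.45 with spike-in scaling. *Il10rb*, a chain of the interferon lambda receptor, was at log2 fold change -0.04 (adjusted p = 0.66), and its partner *Ifnlr1* had at most 6 counts in a library and was not tested. Among the kinases, *Tyk2* rose with log2 fold change 0.82 (adjusted p = 3.7e-16) and *Jak1* fell with log2 fold change -0.29 (adjusted p = 2.6e-09). *Stat3*, which serves cytokines of the interleukin-6 family, rose with log2 fold change 1.34 (adjusted p = 1.9e-24). The feedback inhibitors split: *Socs3* rose from 7.38 ± 0.136 to 41.4 ± 3.86 CPM with log2 fold change 2.48 (adjusted p = 7.9e-25), and *Socs1*, the main brake on interferon signaling, fell from 10.7 ± 0.493 to 3.51 ± 0.297 CPM with log2 fold change -1.6 (adjusted p = 2.3e-15).

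Of the 4 member transcription factors, 2 rose and 2 did not pass the test. *Stat2*, a signal transducer of the type I interferon receptor, was at 21.4, 23.3 and 24.1 CPM at D0 and 35.2, 36.03 and 37.2 CPM at D5, and its log2 fold change was 0.65 (standard error 0.05, edgeR adjusted p = 9.4e-13). *Irf7*, the factor that amplifies interferon production, was low, at 0.2403, 0.428 and 0.224 CPM at D0 and 1.04, 0.7304 and 1.17 CPM at D5. All D5 values of *Irf7* exceeded all D0 values and its log2 fold change was 1.69 (standard error 0.31, edgeR adjusted p = 1.2e-05). *Irf9*, the DNA-binding partner of STAT2, was at 7.17 ± 0.243 CPM at D0 and 7.74 ± 0.728 CPM at D5, with log2 fold change 0.11 (standard error 0.09, edgeR adjusted p = 0.26). *Irf1*, the factor most tied to interferon gamma, was at 27.8 ± 0.3202 and 28.6 ± 1.56 CPM, with log2 fold change 0.04 (standard error 0.05, edgeR adjusted p = 0.45). The D0 and D5 values of *Irf1* and *Irf9* overlapped, and both log2 fold changes were below zero with spike-in scaling, at -0.53 and -0.50.

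The *Ifit* genes encode proteins that bind foreign RNA lacking host cap marks and block its translation, and all 3 rose by TMM, though *Ifit2* was below zero with spike-in scaling. *Ifit3* (ENSMUSG00000074896.3, chr19:34583531-34588731, plus strand on GRCm38 in GENCODE M21) had the largest fold change of the 29 members tested. It had 4, 15 and 14 counts at D0 and 176, 152 and 165 counts at D5, or 0.107, 0.357 and 0.348 CPM at D0 and 7.01, 6.17 and 6.63 CPM at D5. The D0 libraries thus held traces and the D5 libraries a clear signal, with a log2 fold change of 4.57 (standard error 0.20, edgeR adjusted p = 7.1e-19) and of 3.97 (standard error 0.62, adjusted p = 2.4e-09) with spike-in scaling. Of its exonic stretches of 50 bases, 51.2% also occur in the neighbouring copy *Ifit3b*, so reads may be divided between them. *Ifit3b* itself was at 0.125 ± 0.0229 CPM at D0 and 1.25 ± 0.2104 CPM at D5, and it too entered the test through D5. *Ifit1* was at 0.721, 1.07 and 0.6705 CPM at D0 and 1.67, 1.66 and 1.33 CPM at D5, with log2 fold change 0.91 (standard error 0.22, edgeR adjusted p = 4.9e-04). *Ifit2* was the most abundant of the 3 at D0, at 14.6 ± 0.0173 CPM, and reached 19.8 ± 0.6397 CPM at D5, a log2 fold change of 0.44 (standard error 0.06, edgeR adjusted p = 6.7e-08) by TMM and -0.11 with spike-in scaling. Per kilobase of exon, in TPM (transcripts per 1e+06 transcripts), *Ifit2* stood at 12.8 ± 0.213 TPM at D0 and *Ifit3* at 0.538 ± 0.286 TPM, while at D5 they stood at 15.6 ± 0.535 and 11.7 ± 0.976 TPM.

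The antiviral enzymes and effectors were mixed, with rises in some genes, several of them low at D0, and few or no counts in several classical induced genes. *Parp14*, an ADP-ribosyltransferase, was at 0.934, 0.856 and 0.968 CPM at D0 and 6.53, 6.01 and 6.63 CPM at D5. Its groups were far apart, with a log2 fold change of 2.79 (standard error 0.15, edgeR adjusted p = 2.9e-17) and of 2.19 (standard error 0.56, adjusted p = 5.4e-04) with spike-in scaling. *Gbp2*, a guanylate-binding GTPase, was at 0.641, 0.642 and 0.621 CPM at D0 and 1.91, 2.27 and 1.97 CPM at D5, and its log2 fold change was 1.69 (standard error 0.21, edgeR adjusted p = 1.1e-08). *Bst2* (tetherin, which holds budding viruses at the cell surface) was at 2.35, 2.74 and 2.16 CPM at D0 and 7.13, 7.22 and 7.48 CPM at D5, with log2 fold change 1.59 (standard error 0.12, edgeR adjusted p = 1.7e-13). In none of these 3 genes did the groups overlap. Over all 38 members, every D5 library exceeded every D0 library in 27 and was under every D0 library in 2, as it was in 42.2% and 41.1% of the genes tested.

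*Ifi27*, whose product sits in the mitochondrial and nuclear membranes, was among the most abundant members, at 19.97, 19.7 and 18.1 CPM at D0 and 53.4, 55.6 and 54.3 CPM at D5, and its log2 fold change was 1.5 (standard error 0.05, edgeR adjusted p = 1.4e-22). *Xaf1*, a pro-apoptotic antagonist of XIAP, rose from 0.881 ± 0.201 to 2.16 ± 0.294 CPM with log2 fold change 1.28 (standard error 0.20, edgeR adjusted p = 1.3e-06). *Oasl2*, a relative of the enzymes that make the messenger for RNase L, rose from 0.678 ± 0.0398 to 1.797 ± 0.455 CPM with log2 fold change 1.4 (standard error 0.22, edgeR adjusted p = 1.5e-06). *Ifi35* rose from 11.99 ± 0.689 to 21.7 ± 0.289 CPM with log2 fold change 0.85 (standard error 0.06, edgeR adjusted p = 1.1e-13), and 16.8% of its exonic length lies opposite another gene, whose reads cannot be separated if counting ignored strand.

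**Figure D3:**
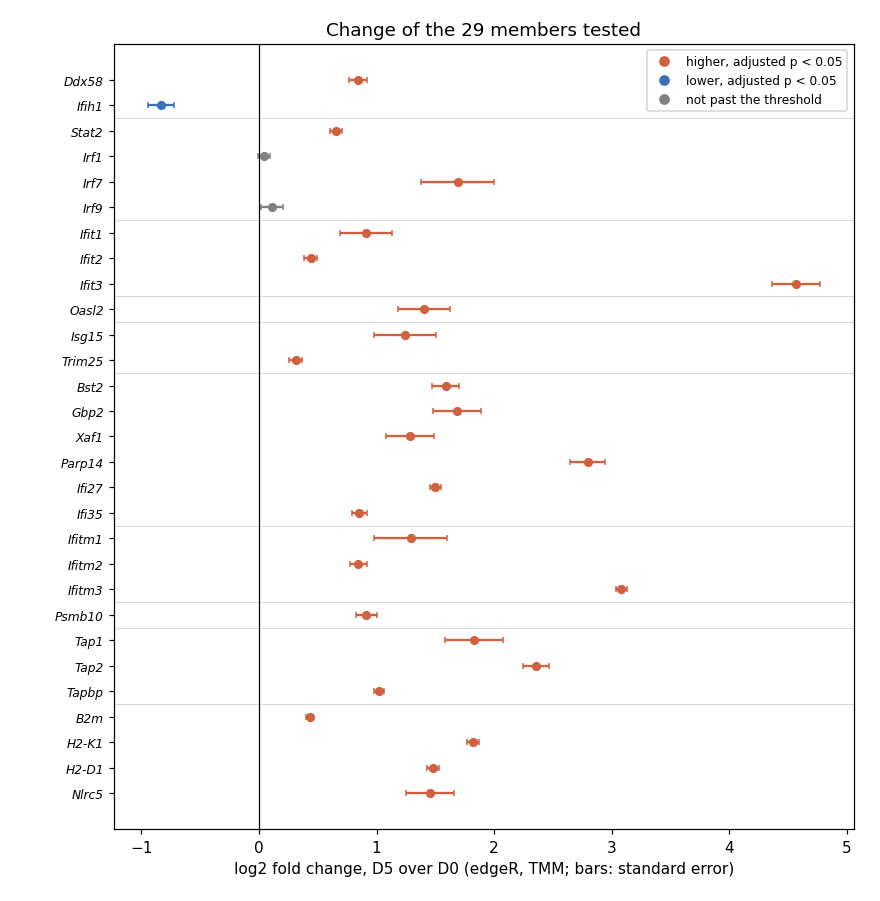
Log2 fold change (D5 over D0) with its standard error for the 29 members tested, in the order sensors, transcription factors, *Ifit*, *Oasl2*, ISG15 system, effectors, *Ifitm*, immunoproteasome, peptide loading and class I (edgeR, TMM scaling). *Ifit3* lies farthest to the right at 4.57, *Ifih1* is the only gene called lower, and *Irf1* and *Irf9* lie at zero within 2 standard errors.

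ISG15 is a small protein that is attached to other proteins in the manner of ubiquitin, and the genes of this system went different ways. *Isg15* itself was at 0.507, 0.476 and 0.422 CPM at D0 and 1.27, 1.22 and 0.844 CPM at D5, with log2 fold change 1.24 (standard error 0.26, edgeR adjusted p = 8.4e-05), and its groups did not overlap. *Trim25*, a ligase that acts on RIG-I and can attach ISG15, was at 22.6 ± 0.988 and 28.01 ± 0.896 CPM, with log2 fold change 0.31 (standard error 0.05, edgeR adjusted p = 3.7e-06) by TMM and -0.25 with spike-in scaling. *Ube2l6*, the conjugating enzyme for ISG15, fell from 25.99 ± 1.05 to 5.24 ± 0.396 CPM, with log2 fold change -2.31 (standard error 0.07, edgeR adjusted p = 9.2e-23). *Uba7*, the activating enzyme and named after its value was seen, rose from 0.594 ± 0.193 to 2.48 ± 0.434 CPM with log2 fold change 2.06 (adjusted p = 1.2e-09). *Usp18*, which removes ISG15 and also brakes the type I receptor, had 1, 3 and 1 counts at D0 and 0, 0 and 1 at D5 and was not tested.

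The *Ifitm* genes, whose membrane proteins hinder the entry of enveloped viruses, lie together on chromosome 7 and all 3 rose by TMM. With spike-in scaling only *Ifitm3* kept its call. *Ifitm3* (ENSMUSG00000025492.6, chr7:141009586-141010770, minus strand) was at 11.6, 11.5 and 11.3 CPM at D0 and 100.2, 92.4 and 98.9 CPM at D5. The values within a day were close together and the 2 days were 8.47-fold apart, with a log2 fold change of 3.08 (standard error 0.05, edgeR adjusted p = 8.1e-31) and of 2.5 (standard error 0.55, adjusted p = 4.0e-05) with spike-in scaling. *Ifitm2* was at 15.03, 11.7 and 13.1 CPM at D0 and 24.01, 22.4 and 24.96 CPM at D5, with log2 fold change 0.85 (standard error 0.07, edgeR adjusted p = 2.9e-12), but 40.9% of its exonic length overlaps another annotated gene and 48.5% of its stretches of 50 bases recur elsewhere, so its counts are uncertain. *Ifitm1* was low, at 0.427, 0.214 and 0.447 CPM at D0 and 0.796, 0.7304 and 1.13 CPM at D5, with log2 fold change 1.29 (standard error 0.31, edgeR adjusted p = 3.6e-04). In TPM, *Ifitm2* at 70.04 ± 7.96 and *Ifitm3* at 58.5 ± 0.525 were near each other at D0, and at D5 *Ifitm3* stood at 445 ± 26.8 TPM and *Ifitm2* at 113 ± 7.14 TPM.

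Of the 9 members that could not be tested, 7 stayed at 5 counts or fewer in every library. *Oas1a*, *Mx1*, *Ifi44*, *Usp18*, *Cxcl10*, *Psmb8* and *Psmb9* make up these 7, and their D0 and D5 counts overlapped. *Mx1* (a GTPase that, where intact, blocks influenza viruses) had 0, 1 and 0 counts at D0 and 0, 0 and 2 at D5, and *Cxcl10* (a chemokine that draws T cells) had 1, 3 and 1 and 4, 2 and 0. *Mx2*, annotated as a polymorphic pseudogene in the reference genome, had 1, 2 and 2 counts at D0 and 6, 15 and 7 at D5. All D5 counts of *Mx2* were above all D0 counts, and the ratio of summed counts after scaling was 8.99 (95% interval 3.43 to 29.8). *Rsad2* (viperin, which makes a chain-terminating nucleotide) went the other way, with 11, 16 and 24 counts at D0 and 2, 0 and 0 at D5, and a D5 over D0 ratio of 0.0629 (95% interval 0.00742 to 0.239). *Rsad2* passed the filter and was called lower when D0 replicate 1 or any single D5 replicate was left out, which made 2 members lower. These intervals are exact and cover counting error only.

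A list of 64 further interferon-stimulated genes, drawn up with earlier results of these data known, held calls in both directions. Of the 47 tested, 28 were higher, 15 lower and 4 passed in neither direction, beside 42.2% higher and 40.8% lower over all genes. Of the 47, 13 reached the filter in fewer than 3 libraries of one day. The median of their log2 fold changes was 0.64. *Sp100*, a nuclear body protein, went from 1, 2 and 1 counts to 87, 63 and 79 counts and entered the test through D5, with log2 fold change 6.37 (standard error 0.34, edgeR adjusted p = 8.2e-17). *Lgals3bp*, a secreted glycoprotein, rose from 1.25 ± 0.154 to 19.3 ± 1.08 CPM with log2 fold change 3.94 (adjusted p = 6.2e-25). The largest falls were in genes of the Schlafen family, where *Slfn2* went from 6.802 ± 0.371 to 0.215 ± 0.0635 CPM with log2 fold change -4.96 (adjusted p = 1.2e-19), entering the test through D0, and *Slfn9* from 17.6 ± 0.462 to 0.737 ± 0.221 CPM with log2 fold change -4.57 (adjusted p = 2.8e-24).

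**Figure D4:**
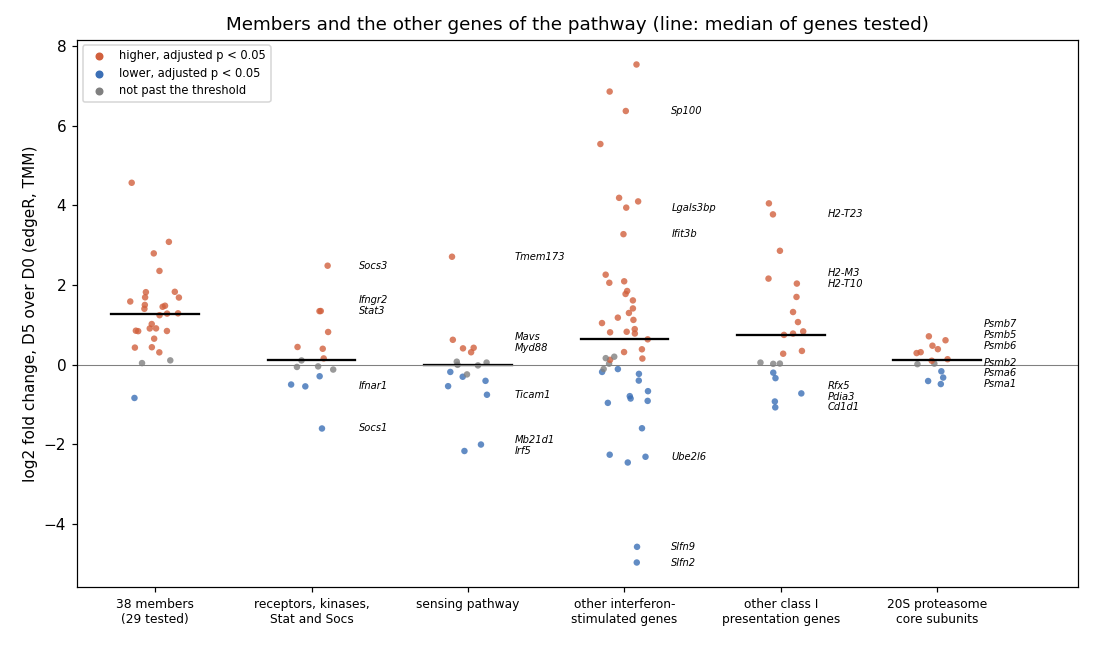
Log2 fold change (D5 over D0; edgeR, TMM scaling) of the members and of the other genes of the pathway that were tested, 1 point a gene, coloured by the call, with a line at each median. The members, chosen with earlier results of these data known, are almost all above zero. Each other list with more than 1 gene tested holds calls in both directions, as do all genes tested (42.2% higher and 40.8% lower). *Sp100*, *H2-T23* and *Socs3* are labelled among the rises and *Slfn2*, *Irf5* and *Socs1* among the falls.

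Class I molecules consist of a polymorphic heavy chain and the invariant light chain B2M, and by TMM both rose, the heavy chains with the larger log2 fold changes. *H2-K1* (ENSMUSG00000061232.15, chr17:33996017-34000347, minus strand) was at 14.7, 15.01 and 13.3 CPM at D0 and 49.97, 52.1 and 50.04 CPM at D5. Its log2 fold change was 1.82 (standard error 0.05, edgeR adjusted p = 5.4e-24), and 1.27 (standard error 0.53, adjusted p = 0.047) with spike-in scaling. *H2-D1* (ENSMUSG00000073411.11, chr17:35262730-35267499, plus strand) was at 18.6, 19.3 and 16.5 CPM at D0 and 50.8, 50.1 and 51.01 CPM at D5, with log2 fold change 1.48 (standard error 0.05, edgeR adjusted p = 1.2e-21). With spike-in scaling *H2-D1* was at 0.92 (standard error 0.52, adjusted p = 0.16) and lost its call. In both genes the lowest D5 library was well over the highest D0 library. *B2m* was the most abundant member, at 139, 135 and 138 CPM at D0 and 185, 187 and 182 CPM at D5, and its log2 fold change was 0.43 (standard error 0.03, edgeR adjusted p = 3.2e-13) by TMM and -0.13 with spike-in scaling. The ratio of the summed TPM of *H2-K1* and *H2-D1* to the TPM of *B2m*, which does not depend on the scaling of a library, was 0.0748 ± 0.00608 at D0 and 0.172 ± 0.00168 at D5 (SD, n = 3 each). The ranges did not overlap (two-sided exact permutation p = 0.1, the smallest that 3 against 3 samples allow). The line carries the class I alleles of C3H mice, while the reference genome is that of C57BL/6J, and 9.63% of the stretches of 50 bases in *H2-K1* and 12.8% of those in *H2-D1* occur in other genes, so levels of single class I genes are uncertain.

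*Nlrc5*, which encodes the transactivator of class I genes, was low and rose, at 0.667, 0.761 and 0.745 CPM at D0 and 2.27, 1.87 and 1.85 CPM at D5, with log2 fold change 1.45 (standard error 0.20, edgeR adjusted p = 1.5e-07). Among 26 other genes of class I presentation, 13 were higher and 5 lower of the 21 tested, beside 42.2% and 40.8% of all genes. The non-classical gene *H2-T23* (Qa-1, a ligand of inhibitory receptors on natural killer cells) rose from 1.801 ± 0.144 to 24.7 ± 0.391 CPM with log2 fold change 3.77 (standard error 0.09, edgeR adjusted p = 1.4e-26). *H2-M3*, which presents formylated peptides, rose from 0.958 ± 0.187 to 4.27 ± 0.202 CPM with log2 fold change 2.16 (adjusted p = 3.5e-13). *H2-T10*, annotated as a polymorphic pseudogene, was at 0.242 ± 0.0191 CPM at D0 and 1.005 ± 0.116 CPM at D5, with log2 fold change 2.04 (adjusted p = 3.0e-07), and is 1 of 3 genes of this list that reached the filter on low counts through D5 only. The falls included *Pdia3*, a chaperone of the peptide-loading complex, from 439.6 ± 5.95 to 232 ± 6.503 CPM with log2 fold change -0.92 (adjusted p = 1.4e-21), *Cd1d1*, which presents lipids, with log2 fold change -1.07 (adjusted p = 3.2e-08), and *Rfx5*, a factor that binds class I and class II promoters, with log2 fold change -0.72 (adjusted p = 1.7e-12). Of 7 class II genes 1 was tested, *H2-DMa*, with log2 fold change 0.88 (adjusted p = 7.7e-06), and the class II transactivator *Ciita*, named after its value was seen, had at most 2 counts in a library.

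The 3 genes of peptide transport and loading all rose by TMM. With spike-in scaling only *Tap2* kept its call, with *Tap1* at log2 fold change 1.24 (adjusted p = 0.077) and *Tapbp* at 0.45 (adjusted p = 0.53). *Tap2*, a subunit of the transporter that carries peptides into the endoplasmic reticulum, was at 1.71, 2.07 and 1.91 CPM at D0 and 9.87, 9.98 and 9.37 CPM at D5, with log2 fold change 2.35 (standard error 0.11, edgeR adjusted p = 2.8e-18) and log2 fold change 1.8 (standard error 0.54, adjusted p = 0.0043) with spike-in scaling. *Tap1*, the other subunit, was at 0.534, 0.452 and 0.323 CPM at D0 and 1.63, 1.501 and 1.53 CPM at D5, with log2 fold change 1.83 (standard error 0.25, edgeR adjusted p = 6.9e-08). *Tapbp* (tapasin, which bridges the transporter and the class I molecule) was at 54.97, 58.8 and 60.99 CPM at D0 and 115, 118 and 122 CPM at D5, with log2 fold change 1.02 (standard error 0.04, edgeR adjusted p = 1.8e-20). No D5 library of these 3 genes fell within the D0 range. Per kilobase, tapasin was far more abundant than the transporter, at 101 ± 2.19 TPM at D5 compared with 0.8803 ± 0.0573 TPM for *Tap1* and 7.99 ± 0.328 TPM for *Tap2*. Of their exonic length, 18.5% in *Tap2* and 24.9% in *Tapbp* lies opposite another gene.

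The immunoproteasome subunits, which replace the constitutive catalytic subunits of the 20S core and favour peptides that bind class I, behaved differently from each other. *Psmb10* was at 6.01, 6.09 and 5.17 CPM at D0 and 10.2, 11.1 and 11.2 CPM at D5, with log2 fold change 0.91 (standard error 0.09, edgeR adjusted p = 1.0e-10). With spike-in scaling it was at 0.35 (standard error 0.52, adjusted p = 0.63) and lost its call. *Psmb8* had 1, 0 and 3 counts at D0 and 3, 0 and 3 at D5, and *Psmb9* had 0, 4 and 0 and 1, 5 and 0. The constitutive subunits they replace were abundant: *Psmb5* (replaced by *Psmb8*) went from 36.7 ± 1.9 to 56.2 ± 2.61 CPM with log2 fold change 0.61 (adjusted p = 3.6e-13), *Psmb6* (replaced by *Psmb9*) from 119 ± 5.201 to 165 ± 13.3 CPM with log2 fold change 0.48 (adjusted p = 1.6e-11), and *Psmb7* (replaced by *Psmb10*) from 146 ± 5.09 to 239 ± 6.42 CPM with log2 fold change 0.71 (adjusted p = 4.6e-18). *Psmb6* was at log2 fold change -0.05 with spike-in scaling. In TPM, *Psmb10* made up 7.33% ± 0.393 of *Psmb10* plus *Psmb7* at D0 and 8.34% ± 0.503 at D5 (SD, n = 3 each), from 6.88% to 7.60% and from 7.82% to 8.82% (two-sided exact permutation p = 0.1, the smallest possible). The corresponding share of *Psmb8* was at most 0.0600% and that of *Psmb9* at most 0.0575% in any library. Of the 14 core subunits of the constitutive proteasome 8 were higher and 4 lower by TMM, beside 42.2% and 40.8% of all genes. Their log2 fold changes lay between -0.48 and 0.71, and 6 of the 8 rises were below zero with spike-in scaling.

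*Tap1*, *Tap2*, *Psmb8* and *Psmb9* lie side by side in the MHC on chromosome 17 (GRCm38), with *Psmb9* at chr17:34181987-34187764, minus strand, *Tap1* at chr17:34187553-34197225, plus strand, *Psmb8* at chr17:34197721-34201454, plus strand and *Tap2* at chr17:34203527-34216321, plus strand. *Tap1* and *Psmb9* are transcribed away from each other, and their RefSeq starts are 226 bases apart. Summed over the 3 libraries of a day, *Tap1* had 52 counts at D0 and 116 at D5, while *Psmb9* had 4 and 6. *Tap2* had 228 and 727 counts, and *Psmb8*, between both transporter genes, had 4 and 6.

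Rises were found among members with and without a promoter match. Of the 11 members with an ISRE core, 8 were higher and 3 (*Oas1a*, *Rsad2* and *Cxcl10*) were not tested. Of the 20 with a window and no core, 14 were higher, 1 was lower, 2 did not pass the test and 3 were not tested. Over all genes tested, 42.2% were higher and 40.8% lower. The members were chosen with earlier results of these data known, and the part of the element in the rises was not tested. Near copies of the element shown above stood before *Ifit3*, which had the largest fold change, before *B2m*, which was already at 137 ± 2.298 CPM in myoblasts, and before *Cxcl10*, which had at most 4 counts in a library.

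The groups matched their labels, and the defining immune cell markers were at or near zero. *Myog* and *Myh3*, markers of differentiation, rose by 7.54 and 11.44 on the log2 scale, and *Myf5*, a myoblast marker, was at log2 fold change -2.32. *Ptprc* (CD45, on all white blood cells) had 1 count in 1 D5 library and 0 elsewhere, and the macrophage marker *Adgre1* had 0 in all 6. The summed level of the 8 immune markers was 8.52 to 9.04 TPM at D0 and 5.95 to 7.47 TPM at D5, and the marker of it with the most counts was *Cd68*, a lysosomal protein that other cells also make (124, 130 and 123 counts at D0 and 57, 63 and 46 at D5). *Itgam* (0 counts at D0 and 10, 13 and 5 at D5) and *Lyz2* (1, 1 and 0 and 4, 10 and 13) had a few counts at D5. Of the exonic length of *Itgam*, 68.7% overlaps other annotated genes on its strand, so its counts are uncertain. The summed level of 4 endothelial markers was 1.54 to 1.64 TPM at D0 and 0.263 to 0.512 TPM at D5. Most of it at D0 was *Kdr*, with means of 0.956 TPM at D0 and 0.0736 TPM at D5, and *Tek*, with 0.560 and 0.176 TPM. *Pecam1* had at most 7 counts in a library, and *Cdh5* went the other way, from 0, 0 and 1 counts to 2, 1 and 3. The 4 fibroblast markers summed to 96.4 to 105 TPM at D0 and 123 to 135 TPM at D5. *Pdgfra* was higher by 4.52 and *Dpt* by 7.85 on the log2 scale, and *Thy1* was at 1 count or 0. *Dpt* had only 2, 5 and 3 counts at D0 and entered the test through D5. *Ly6a*, which made up most of the fibroblast sum, was at 100.3 ± 4.08 TPM at D0 and 85.8 ± 3.59 TPM at D5. It did not pass the test (log2 fold change -0.07, edgeR adjusted p = 0.22). The part of these markers in the results above was not tested.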

How the data were processed

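Total RNA of C2C12 cells (3 samples at day 0 and 3 at day 5) was sequenced on an Illumina platform by the authors, and the deposited files hold raw counts of reads per gene on mouse build mm10 (GRCm38), made with featureCounts. DESeq2 1.6.3 is also named in the submitters' processing notes. The labels and the methods of the study name different aligners, and the strand setting, the annotation release and the handling of multi-mapping reads are not given in the sources used here. Neither the 92 ERCC rows nor the unnamed row that sums its column entered library sizes or tests. Genes were filtered with filterByExpr in edgeR 4.0.16 (R 4.3.3), which kept 16290 of 54525 at a minimum of about 0.321 CPM in 3 libraries, scaled by TMM and tested with the quasi-likelihood test on all 6 libraries with day as the only term, Benjamini-Hochberg adjusted over all genes tested. Alternatives were DESeq2 1.42.0, upper-quartile, total-count and ERCC scaling, no filter, at least 10 counts in every library, the replicate number as a block, and each library left out in turn. TPM and positions used GENCODE M21 exons, matched by gene ID for 99.9% of gene rows, and promoters came from RefSeq on GRCm38.p6. The test was checked on simulated data in which only well counted genes changed, equally up and down. That check does not cover genes with low counts or the choice of scaling.

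The members and the lists were chosen with earlier results of these data known. All members are named; of each other list the 3 largest rises and falls past the threshold with at least 1 CPM in a group are named, together with *Jak1*, *Tyk2*, the interferon receptors and *Psmb5*, *Psmb6* and *Psmb7*. One gene that this rule names is not reported here. At these depths, 3 counts in a library correspond to 0.0714 to 0.122 CPM, and intervals cover counting error only.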

Additional observations from a re-analysis of the deposited data

How the results depend on the processing

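The 27 member calls kept their direction and stayed past the threshold wherever they could be tested under the 12 alternatives other than spike-in scaling (DESeq2, upper-quartile and total-count scaling, no filter, at least 10 counts in every library, the replicate block and 6 fits with a library left out). With scaling to the ERCC spike-ins, whose share varied most among the D5 libraries, 5 members were higher, the median log2 fold change of the members was 0.70, and 18 other pathway genes were higher and 17 lower, compared with 62 and 35 by TMM. Of the members, 18 calls were lost in the same direction and 5 values changed sign: *Irf1* -0.53, *Irf9* -0.50, *Ifit2* -0.11, *Trim25* -0.25 and *B2m* -0.13. The cause of the shift was not tested. The sign of *Irf1*, never called, also changed with total counts (-0.043) and with no filter (-0.012), and it ranged from -0.0015 to 0.071 with a library left out. With no filter, all 38 members were tested, 27 were higher (*Mx2* entered, log2 fold change 3.00, adjusted p = 7.9e-06) and 2 lower (*Rsad2* entered, -3.86, adjusted p = 9.7e-08), and the median was 1.16. Without the filter, 26.1% of all genes were called higher and 26.1% lower. With at least 10 counts in every library 26 members were tested, 23 were higher and the median was 1.13, beside 41.9% of all genes higher and 41.9% lower. With a library left out, 26 members were higher throughout, 1 to 2 were lower (*Rsad2* passed the filter and was called without D0 replicate 1 or without any single D5 replicate), and the median ran from 1.16 to 1.26. Over all genes these fits called 40.4% to 41.7% higher and 38.7% to 40.2% lower.

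Whether the same replicate numbers at D0 and D5 pair the samples is not recorded. The correlation of deviations was 0.02, 0.12 and 0.06 for same-numbered libraries and ran from -0.08 to 0.02 for the others. With 3 libraries a day these values cannot decide it. With the replicate block 26 members were higher and 1 lower, with a median of 1.29, and 62 other pathway genes were higher and 35 lower. Over all genes tested, 42.3% were then higher and 40.9% lower. Depth limits the 7 members that stayed at 5 counts or fewer, whose change was not detectable.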
